A study of Mus musculus with 35 samples.

Results

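The testis-specific serine kinase genes Tssk1, Tssk2, Tssk3, Tssk4, Tssk5 and Tssk6 were described in male germ cells of mice with and without the endonuclease gene Smg6. The members were chosen by name, and all 6 were among the 24411 genes counted. RNA of isolated pachytene spermatocytes (Spc), of isolated round spermatids (RS) and of isolated chromatoid bodies (CBs) was sequenced. Spc and RS had 3 Smg6-cKO and 3 control (CTRL) libraries each, and CBs had 3 Smg6-cKO and 4 CTRL libraries. Smg6-cKO mice were Smg6 fx/fx;Ngn3Cre+, with loxP sites around exon 9 of Smg6 and Cre under the Neurogenin 3 promoter, which is active in spermatogonia early after birth. CTRL mice were Cre-negative littermates, Smg6 fx/fx or fx/wt, so that the controls carried the floxed allele too, and all mice were adults on a mixed C57Bl/6J and SV129 background. The cells were separated by sedimentation through an albumin gradient from pooled testes, and CBs were precipitated with an antibody to DDX4 from pools of mice. Judged by DAPI staining in the paper, neither cell fraction was pure, so the cell libraries hold RNA of other cells too. Nothing in the sources ties a library to 1 animal, so the p-values measure the spread between these libraries.

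TSSKs are a small family of serine/threonine kinases made almost only in the testis, and most of their RNA appears after meiosis, when haploid spermatids start to build the acrosome and the flagellum. TSSK1 and TSSK2 bind and phosphorylate the testis-specific kinase substrate TSKS, and male mice without both kinases are infertile. TSSK6, also called SSTK, is needed for sperm chromatin condensation and for fusion with the egg. TSSK4 phosphorylates ODF2, a protein of the outer dense fibers of the tail, and mice without it have poorly motile sperm. The CB is a cytoplasmic granule of round spermatids that holds RNA, RNA-binding proteins and parts of the nonsense-mediated decay machinery, to which the SMG6 endonuclease belongs.

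The 6 genes lie on 5 chromosomes (GRCm38). Tssk1 (chr16:17894223-17897922, plus strand) and Tssk2 (chr16:17898637-17900024, plus strand) are neighbors separated by 714 bp. Tssk6 is at chr8:69902184-69903518 (plus), Tssk3 at chr4:129489014-129491022 (minus), Tssk4 at chr14:55650184-55652539 (plus) and Tssk5 at chr15:76371952-76374938 (minus). Tssk1, Tssk2 and Tssk6 have a single exon, while the counted transcripts of Tssk3, Tssk4 and Tssk5 have 2, 3 or 4, and 8 exons. None of the 7 counted transcripts has an exon junction after its stop codon. The 3′ UTR of Tssk1 measured 2472 nt in the Ensembl transcript of 3700 nt, and those of the other counted transcripts measured 57 to 654 nt. The length for Tssk1 depends on the annotation, since its RefSeq model has 1451 nt of exon in all. Tssk1 lies wholly within Dgcr2 on the opposite strand, and Tssk6 overlaps Yjefn3 by 529 bp and Ndufa13 by 375 bp, also on the opposite strand. The reads were counted with their strand. The coding sequences of Tssk1 and Tssk2 were identical at 81.1% of aligned positions, with a longest identical run of 113 nt, against 61.0% to 67.9% for the other pairs and runs of at most 14 nt. A read of 75 nt can therefore fit both Tssk1 and Tssk2 at some places, and the split of such reads between the pair is uncertain.

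CREM, the activator of many spermatid genes, binds the cAMP response element TGACGTCA. The promoters given by RefSeq (GRCm38.p6), 250 bases before to 50 after each gene's start, held an entry for 5 of the 6 genes, with none for Tssk5. The full element TGACGTCA was in none of the 5 and in 1.79% of all 32851 promoters. Its first letters TGACG, searched on both strands and therefore also part of each full element, were in the Tssk6 promoter and in 20.8% of all promoters. The variant TGACTTCA, which was picked after the promoters had been read, was in the promoters of Tssk1 and Tssk2 and in 1.52% of all promoters. Its presence in the 2 was fixed by that choice, so the share over all promoters tests nothing. The TATA box letters TATAAA were in none of the 5 and in 13.6% of all promoters. The windows show the variant that the neighbors Tssk1 and Tssk2 share upstream and, for Tssk6, the match to TGACG at another distance from the start. Matched letters are in capitals, 5′ to 3′ on the plus strand.
Tssk1, chr16:17894144-17894173, 48 bases before the start: ttactcctttgTGACTTCAcccactgaagt
Tssk1, chr16:17894157-17894186, 35 bases before the start, matching on the other strand: acttcacccacTGAAGTCAcctgggagaca
Tssk2, chr16:17898568-17898597, 58 bases before the start: gcccagctttaTGACTTCAttcgctggtca
Tssk6, chr8:69902099-69902128, 73 bases before the start: cccaaggccgagTGACGcccgcagtcactt
These are matches of letters, and binding was not measured.

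The cell libraries held 36419197 to 47355837 counts on genes, and the CB libraries 2705277 to 12103906. Expression is given as CPM, a gene's share of the library's counts on genes multiplied by 1e+06, after TMM scaling, which was done over the 12 cell libraries together and over the 7 CB libraries together, so that levels of cells and of CBs are not on 1 scale. Smg6 itself had 109 to 172 CPM in CTRL and 182 to 189 in Smg6-cKO spermatocytes, 143 to 235 and 190 to 203 CPM in round spermatids, and 256 to 283 and 231 to 292 CPM in CBs. A count over the whole gene does not resolve the deleted exon and checks nothing. Markers of the labeled cell types were present, with 10 of 10 spermatocyte markers and 8 of 8 spermatid markers above 0 in every library. Replicate libraries of a group differed from each other by more than sampling noise in all 21 pairs, with a chi-square of at least 9.89 per gene.

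In control mice all 6 Tssk genes were higher in round spermatids than in spermatocytes, with mean levels 3.92 to 7.68 times those in spermatocytes. Tssk6 rose most, from 90.6, 42.9 and 43.9 CPM in the 3 spermatocyte libraries to 433, 441 and 488 CPM in the 3 round spermatid libraries. Its log2FC was 2.803 ± 0.31 (SE), with an edgeR adjusted p of 2.4e-04. The lowest round spermatid library lay far above the highest spermatocyte library. Tssk3, a kinase of spermatids with a role in male fertility, rose from 81.3, 37.7 and 42.4 CPM to 338, 292 and 367 CPM (log2FC 2.49 ± 0.30). Tssk2 rose from 214, 109 and 124 CPM to 809, 747 and 851 CPM (log2FC 2.29 ± 0.26). Tssk1, its neighbor, rose from 198, 113 and 121 CPM to 584, 579 and 638 CPM (log2FC 1.92 ± 0.22). Tssk5 rose from 25.5, 14.5 and 14.7 CPM to 71.96, 73.7 and 72.5 CPM (log2FC 1.86 ± 0.23), and Tssk4 from 93.8, 52.7 and 63.4 CPM to 273, 281 and 269 CPM (log2FC 1.84 ± 0.21). No gene's groups overlapped, and the edgeR adjusted p was at most 3.4e-04 in all 6. A gene was called where its adjusted p was at most 0.05 and its log2FC at least 1.5 in size. All 6 were called higher, against a background of 17.0% of the 17046 genes tested, and the groups did not overlap in this direction for 42.0% of genes. With library size in place of TMM scaling 3 of 6 stayed called (Tssk2, Tssk3 and Tssk6), and the calls over all genes went from 2895 higher and 2901 lower to 1130 and 4363. The median log2FC was 2.11 over the members and -0.08 over all genes.

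Counts grow with transcript length, so genes are compared with each other in CPM per kb of RefSeq exon length. In control round spermatids the order was Tssk2 with 578 ± 37.6 CPM per kb (SD, n = 3), Tssk1 with 414 ± 22.6, Tssk6 with 340.04 ± 21.9975, Tssk3 with 321 ± 36.7, Tssk4 with 193 ± 4.19 and Tssk5 with 48.0 ± 0.59. Neighbors in this order did not overlap, except Tssk6 and Tssk3. In control spermatocytes Tssk2 (107 ± 40.8), Tssk1 (99.4 ± 32.2), Tssk3 (52.0 ± 23.1), Tssk4 (49.3 ± 14.99) and Tssk6 (44.3 ± 20.4 CPM per kb) each overlapped the next, and Tssk5 lay apart below them at 12.1 ± 4.16 CPM per kb. The place of Tssk1 rests on the RefSeq length. On the Ensembl transcript of 3700 nt its level in control round spermatids would be 162 ± 8.84 CPM per kb, below Tssk4.

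**Figure D1:**
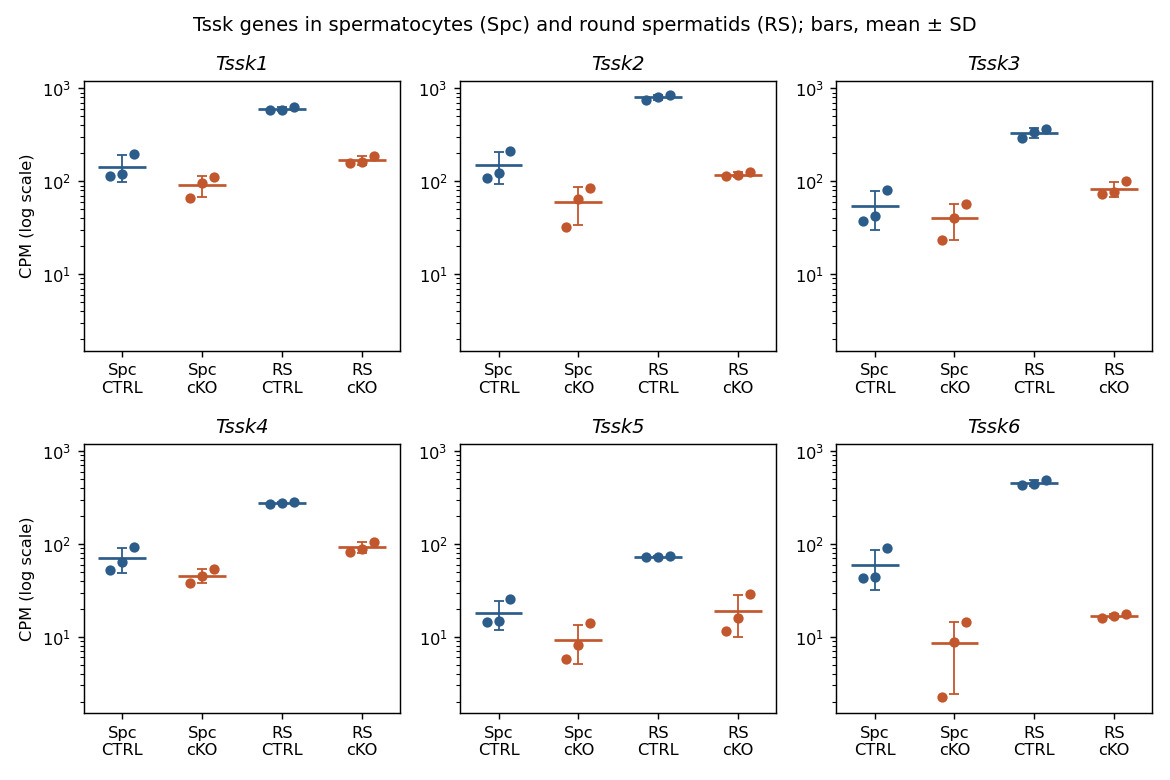
Each panel plots 1 Tssk gene in CPM on a log axis, with a point for each of the 3 libraries per group, a line at the mean and error bars of 1 SD, control in blue and Smg6-cKO in orange. The control round spermatid points stand above all others in every panel, and the Smg6-cKO round spermatids of Tssk6, at 16.0 to 17.5 CPM, lie below its control spermatocytes.

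In round spermatids of Smg6-cKO mice all 6 Tssk genes were lower than in CTRL. Tssk6 fell furthest, from 433, 441 and 488 CPM to 17.5, 16.8 and 16.0 CPM, a mean 27.1 times lower, with a log2FC of -4.75 ± 0.08 (edgeR adjusted p = 6.5e-08). Only 0.25% of the genes tested had a log2FC as low. Tssk2 fell to 113, 125 and 116 CPM, a mean 6.80 times lower than in CTRL (log2FC -2.75 ± 0.08, edgeR adjusted p = 1.5e-07). Tssk3 fell to 73.3, 99.8 and 75.9 CPM (log2FC -1.99 ± 0.14). Tssk1 fell to 156, 188 and 160.4 CPM (log2FC -1.83 ± 0.09). Tssk5 fell to 16.1, 29.2 and 11.7 CPM and had the widest error (log2FC -1.92 ± 0.29, edgeR adjusted p = 5.3e-04). Tssk4 fell least, to 82.5, 106 and 88.5 CPM (log2FC -1.56 ± 0.10, edgeR adjusted p = 3.3e-06), which is just past the limit of 1.5.

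No Tssk gene had overlapping groups in this comparison, and the exact two-sided permutation p of each was 0.10, the smallest that 3 against 3 libraries allow. All 6 were called lower, against 11.6% of the 17492 genes tested. Groups did not overlap in this direction for 36.9% of genes. The median log2FC was -1.96 over the members and 0.11 over all genes. In isolated cells fewer cells of a stage and less RNA per cell cannot be told apart. Scaling by library size alone moved the median of all genes to 0.73 and the calls over all genes from 2597 higher and 2021 lower to 4991 and 1080. Under it all 6 members were still lower with edgeR adjusted p of at most 0.0027, 2 of them (Tssk2 and Tssk6) past 1.5. Relative to the median of all genes they lay between -4.86 and -1.67 under TMM and between -4.85 and -1.67 under library size. A change of scaling shifts all genes by nearly the same amount, so this distance was bound to stay nearly the same and tests nothing. Tssk4 missed 1.5 without Smg6-cKO replicate 1 (-1.42) or replicate 3 (-1.48) and with transcript counts summed per gene (-1.48).

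**Figure D2:**
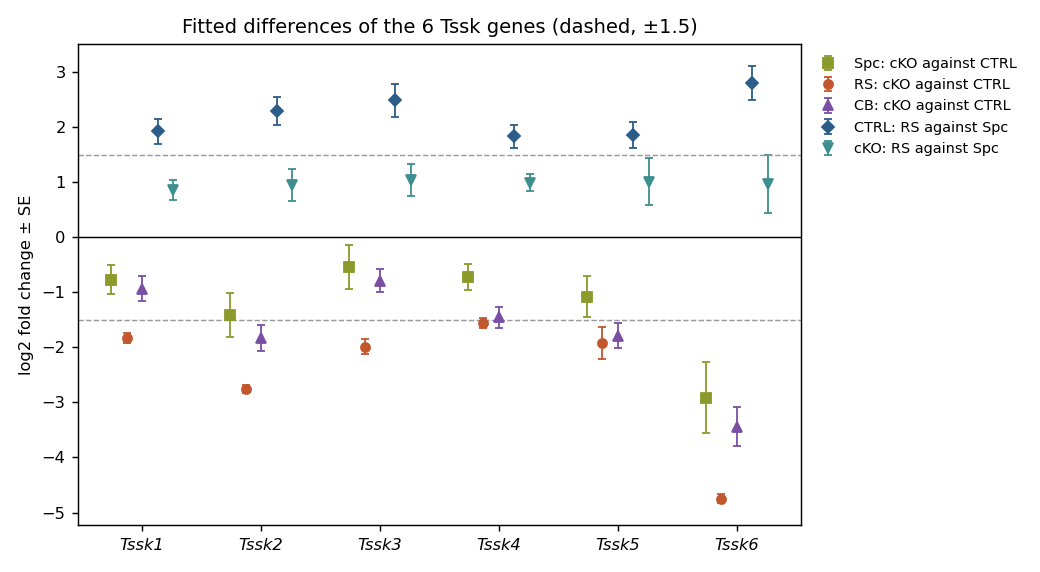
Points show the fitted log2FC of each Tssk gene in 5 comparisons with error bars of 1 SE, and dashed lines mark 1.5 in either direction. Tssk6 is the lowest gene in each comparison of Smg6-cKO with CTRL, at -2.91, -4.75 and -3.44, and the rise from spermatocytes to round spermatids lies above 1.5 for all 6 genes in CTRL and below it for all 6 in Smg6-cKO.

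In spermatocytes the same comparison gave log2FCs between -2.91 and -0.54. This fraction was not pure, and the part of spermatids in its values was not tested. Tssk6 was again lowest, at 8.8, 14.4 and 2.3 CPM in Smg6-cKO against 90.6, 42.9 and 43.9 CPM in CTRL, a mean 6.96 times lower (log2FC -2.91 ± 0.65, edgeR adjusted p = 0.019). With 1 library left out its log2FC lay between -3.56 and -2.44. Smg6-cKO replicate 3 was the lowest library of the group for 5 of the 6 genes, and only for Tssk5 was replicate 1 lower. The values of Tssk2 were 63.9, 85.4 and 31.9 CPM in Smg6-cKO (log2FC -1.42 ± 0.40, edgeR adjusted p = 0.037), which passed on p but not on size. Tssk1 had 96.3, 112 and 66.2 CPM, and its highest Smg6-cKO library lay just under its lowest CTRL library of 113 CPM (log2FC -0.77 ± 0.27, edgeR adjusted p = 0.071). Tssk4 had 45.5, 53.9 and 37.8 CPM (log2FC -0.73 ± 0.24, edgeR adjusted p = 0.059) and Tssk5 5.8, 13.9 and 8.2 CPM (log2FC -1.08 ± 0.38, edgeR adjusted p = 0.072). Tssk3 had 40.3, 56.6 and 23.4 CPM, which overlapped CTRL (log2FC -0.54 ± 0.39, edgeR adjusted p = 0.34).

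Tssk6 alone was called in spermatocytes, 1 of 6, against a background of 5.1% of 17321 genes called lower. Groups did not overlap in this direction for 4 of 6 members and 17.6% of genes. The median log2FC was -0.92 over the members and -0.01 over all genes. On adjusted p alone 2 of 6 passed in edgeR, against 14.1% of genes, and 5 of 6 in DESeq2, all but Tssk3, against 18.3%. The call of Tssk6 was lost without Smg6-cKO replicate 1 (edgeR adjusted p = 0.078), when no member passed on adjusted p, while Tssk2 passed both limits without Smg6-cKO replicate 2 (log2FC -1.75) or without CTRL replicate 2 (-1.60).

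The difference between genotypes was itself compared between the cell types with an interaction term, in which a negative value means a lower Smg6-cKO to CTRL ratio in round spermatids than in spermatocytes. It was -1.96 ± 0.67 for Tssk6 (edgeR adjusted p = 0.035), -1.58 ± 0.46 for Tssk3 (0.017), -1.46 ± 0.43 for Tssk2 (0.019), -1.18 ± 0.31 for Tssk1 (0.010) and -0.96 ± 0.27 for Tssk4 (0.015), each p being adjusted by edgeR. For Tssk5 it was -0.97 ± 0.52 (edgeR adjusted p = 0.15), and without Smg6-cKO round spermatid replicate 2 it was -1.41 (edgeR adjusted p = 0.029). On adjusted p, 5 of 6 members passed in this direction, against 24.1% of 18171 genes. Under library size scaling, which moved the median interaction of all genes from -0.13 to 0.58, none of the 6 passed, and none had an unadjusted p under 0.05, while DESeq2 with its own scaling called 5. For Tssk6 the edgeR adjusted p rose above 0.05, to between 0.054 and 0.10, when any 1 library was left out other than CTRL replicate 1 or Smg6-cKO replicate 3 of the spermatocytes. With the replicate number as a block in the fit Tssk6 did not pass either (edgeR adjusted p = 0.051), while Tssk5 did.

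Within Smg6-cKO mice the members differed less between the stages than in CTRL. Mean levels in round spermatids were 1.83 to 2.07 times those in spermatocytes, and the log2FC lay between 0.86 (Tssk1) and 1.03 (Tssk3). None of the 6 was called by edgeR or by DESeq2, against 3.27% of 17709 genes called higher by edgeR. At an unadjusted p under 0.05 there were 5, against 24.4% of genes higher, and 4 of 6 had an edgeR adjusted p of at most 0.05, against 18.9% of genes in this direction. Those 4 were Tssk1, Tssk2, Tssk3 and Tssk4. Tssk5 (log2FC 1.01 ± 0.42, edgeR adjusted p = 0.086) and Tssk6 (0.96 ± 0.53, edgeR adjusted p = 0.17) were not among them, and without Smg6-cKO spermatocyte replicate 2 Tssk6 was called at 1.68 and all 6 passed on adjusted p. Without Smg6-cKO spermatocyte replicate 1 or round spermatid replicate 2, only 2 of 6 passed on adjusted p (Tssk1 and Tssk4), and DESeq2 gave 5, against 21.6% of genes. Set beside control spermatocytes, Smg6-cKO round spermatids overlapped in range for 5 of 6 genes, while 59.7% of 18171 genes lay apart in either direction. For Tssk6 they lay apart below, which held for 29.2% of genes, and were 3.53 times lower in the mean, 16.8 ± 0.77 against 59.1 ± 27.3 CPM (SD, n = 3 each), where the exact permutation p of 0.10 was the smallest possible.

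The make-up of the family was then read from the counts themselves. Each gene's share of the summed counts of the 6 genes within a library does not depend on scaling. The shares of a library add up to the whole, so a lower share of some genes means a higher share of others. In control round spermatids Tssk6 took 17.9% ± 0.56 of the summed counts (SD, n = 3), and in Smg6-cKO round spermatids 3.405% ± 0.42. In spermatocytes it took 11.7% ± 1.09 in CTRL and 3.00% ± 1.52 in Smg6-cKO, so the share rose from spermatocytes to round spermatids in CTRL and overlapped between the stages in Smg6-cKO. Tssk1 took 23.7% ± 0.36 in control and 33.8% ± 0.52 in Smg6-cKO round spermatids, and Tssk4 10.8% ± 0.81 and 18.5% ± 0.46. Tssk2 took 31.6% ± 0.64 and 23.9% ± 1.44. The share of Tssk3 was 13.1% ± 0.86 and 16.6% ± 0.91, and that of Tssk5, 2.87% ± 0.18 and 3.73% ± 1.36, overlapped. The shares of 5 genes did not overlap between the genotypes in round spermatids, nor did those of the same 5 in spermatocytes, each with the smallest exact permutation p of 0.10. Bound to each other in this way, these 5 are not separate results. Tssk1, Tssk3 and Tssk4 had higher shares in Smg6-cKO round spermatids although their mean CPM was 3.58, 4.00 and 2.97 times lower. For the 2 neighbors with similar sequences the ratio of counts, which gives no order of levels since it is not per length, was lower in Smg6-cKO. Tssk2 had 1.34 ± 0.05 counts per count of Tssk1 in control and 0.705 ± 0.03 in Smg6-cKO round spermatids (SD, n = 3 each), and 1.02 ± 0.06 and 0.64 ± 0.14 in spermatocytes.

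**Figure D3:**
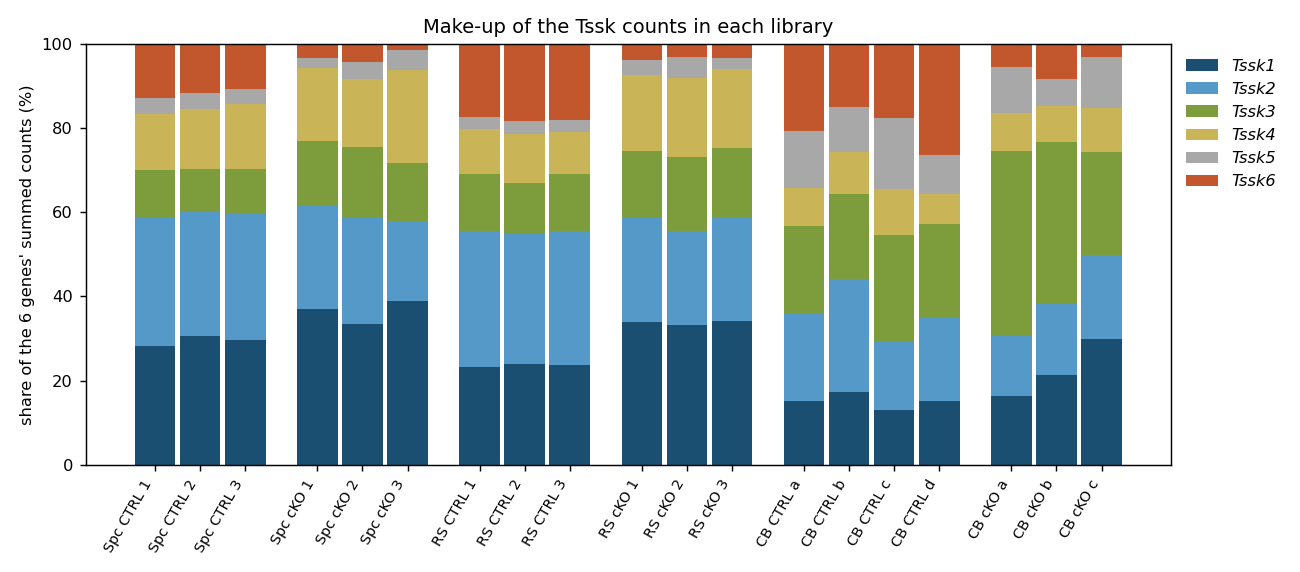
Each bar is 1 library and splits the summed raw counts of the 6 Tssk genes, in percent, with CB libraries named by letters. The Tssk6 segment at the top is 14.96% to 26.3% in control CBs and 17.3% to 18.3% in control round spermatids, and at most 8.24% in every Smg6-cKO library.

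In CBs, the RNA granules of round spermatids, all 6 members were lower in Smg6-cKO and no gene's groups overlapped. The CB columns carry no number that ties them to the labels, so the libraries are named by letters. The columns of control CBs b and c have another name prefix than a and d, which the sources do not explain. Tssk6 had 106, 73.8, 67.5 and 141 CPM in control CBs a to d and 9.8, 13.8 and 5.0 CPM in Smg6-cKO CBs a to c (log2FC -3.44 ± 0.35, edgeR adjusted p = 3.7e-05). The Smg6-cKO values rest on 37, 30 and 28 counts, and 28 counts have an exact 95% Poisson interval of 18.6 to 40.5, for counting error only. Tssk2 had 108, 133, 63.2 and 108 CPM in control CBs and 25.4, 28.1 and 33.0 CPM in Smg6-cKO CBs (log2FC -1.83 ± 0.24, edgeR adjusted p = 1.6e-04). Tssk5 had 69.1, 53.2, 65.1 and 49.9 CPM against 19.3, 11.1 and 19.8 CPM (log2FC -1.79 ± 0.23, edgeR adjusted p = 1.2e-04). These 3 genes were called.

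The other 3 passed on adjusted p but not on size, so that all 6 did on adjusted p, against 18.4% of genes. Tssk4 had 46.3, 48.7, 42.3 and 37.7 CPM in control and 15.9, 14.3 and 17.3 CPM in Smg6-cKO CBs (log2FC -1.46 ± 0.19, edgeR adjusted p = 1.4e-04), and it was past the limit, at -1.52, without control library d or without Smg6-cKO library c. Tssk1 had 77.4, 85.2, 49.996 and 80.5 CPM against 29.1, 35.9 and 48.9 CPM (log2FC -0.94 ± 0.23, edgeR adjusted p = 0.0065), with Smg6-cKO library c just under control library c. Tssk3 had 104.9, 99.4, 97.2 and 118 CPM against 78.0, 64.5 and 40.2 CPM (log2FC -0.79 ± 0.21, edgeR adjusted p = 0.011). The 3 of 6 called lower stand against 5.64% of 14051 genes, and all 6 without overlap stand against 20.8% of genes. The smallest exact permutation p for 3 against 4 libraries is 0.057, which each of the 6 reached. The median log2FC was -1.62 over the members and 0.07 over all genes. Per kb, Tssk3 was the highest member in control CBs (101 ± 9.02 CPM per kb, SD, n = 4), followed by Tssk2 (74.1 ± 20.9), Tssk6 (72.7 ± 25.2), Tssk1 (50.5 ± 10.9), Tssk5 (39.2 ± 6.11) and Tssk4 (30.8 ± 3.38), and each overlapped the next. In Smg6-cKO CBs Tssk3 stood apart above the others, at 58.9 ± 18.5 CPM per kb (SD, n = 3), and Tssk6 was lowest at 7.14 ± 3.30. The share of Tssk6 among the summed counts was 19.9% ± 4.90 in control and 5.60% ± 2.60 in Smg6-cKO CBs, the only share that did not overlap.

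**Figure D4:**
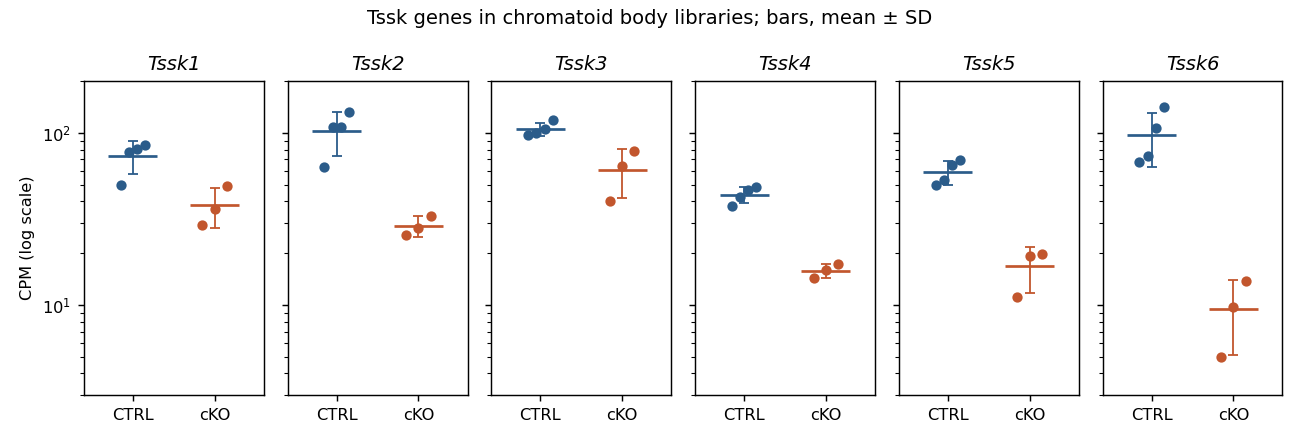
Each panel plots 1 Tssk gene in CB libraries in CPM on a log axis, with a point per library (4 CTRL in blue, 3 Smg6-cKO in orange), a line at the mean and error bars of 1 SD. All Smg6-cKO points lie under all CTRL points of the same gene, by the least for Tssk1 (48.9 and 49.996 CPM) and by the most for Tssk6 (13.8 and 67.5 CPM).

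The deposited transcript table, in which a read pair on several transcripts is split between them, held 1 transcript each for 5 genes and 2 for Tssk4. In round spermatids the 7 transcripts had log2FCs of -4.66 ± 0.07 to -1.46 ± 0.09, and 5 of 7 were called lower, against 10.3% of 57133 transcripts. The 2 not called were those of Tssk4, ENSMUST00000007735 (log2FC -1.48 ± 0.09) and ENSMUST00000164809 (-1.46 ± 0.09), which share most of their exons and so share reads. In spermatocytes 1 of 7 was called, that of Tssk6 (ENSMUST00000050373, log2FC -2.90 ± 0.65), against 3.55% of 57631 transcripts. In CBs 3 of 7 were called, those of Tssk2, Tssk5 and Tssk6, against 4.75% of 30623 transcripts. The Tssk4 transcript that the annotation marks as a target of nonsense-mediated decay, ENSMUST00000227297, with 1 junction after its stop codon, was not analysed here.

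Proteins known to work with the TSSKs, or to act upstream or beside them, were read from a list of 10 genes. In round spermatids 3 of 10 were called lower and none higher (11.6% of genes were called lower), and on adjusted p alone 9 of 10 were lower and 1 higher, against 34.3% and 38.4% of genes. Tsks, the substrate of TSSK1 and TSSK2, fell from 1028 ± 60.3 to 149 ± 23.2 CPM (SD, n = 3 each; log2FC -2.78 ± 0.12, edgeR adjusted p = 5.6e-07), a log2FC close to that of Tssk2. Odf2, the fiber protein phosphorylated by TSSK4, fell from 7513 ± 652 to 2382 ± 161 CPM (log2FC -1.64 ± 0.08). Tsacc, a co-chaperone that helps TSSK6 become active with HSP90, fell from 253 ± 51.2 to 83.4 ± 2.97 CPM (log2FC -1.59 ± 0.14). Ppp1cc, the catalytic subunit of a protein phosphatase of sperm, changed less (log2FC -0.61 ± 0.07), and so did the TSSK2 substrate Spag16 of the axoneme (-0.33 ± 0.09), both with edgeR adjusted p of at most 0.0098. In spermatocytes 1 of 10 was called lower, against 5.1% of genes, which was Tsks (log2FC -1.58 ± 0.40, edgeR adjusted p = 0.027).

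In CBs none of the 10 was called by edgeR, where 5.64% of genes were called lower and 5.69% higher, while on adjusted p 4 were lower and 3 higher, against 18.4% and 18.1% of genes. Tsks had 350 ± 69.8 CPM in control and 155 ± 57.9 in Smg6-cKO CBs (SD, n = 4 and 3), a log2FC of -1.17 ± 0.25. Tsacc had a log2FC of -1.22 ± 0.23 and Odf2 one of -0.83 ± 0.30. Ppp1cc was higher, at 219 ± 46.1 CPM in control and 531 ± 308 in Smg6-cKO CBs (log2FC 1.27 ± 0.30, edgeR adjusted p = 0.0054), and Spag16 had a log2FC of -0.03 ± 0.16. From spermatocytes to round spermatids in CTRL, Tsks was called higher, the only one of the 10 (log2FC 2.23 ± 0.26, edgeR adjusted p = 2.9e-04), against 17.0% of genes.

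Of 20 other kinases with known roles in male germ cells, 1 was called lower and 1 higher in Smg6-cKO round spermatids, against 11.6% and 14.8% of genes, and on adjusted p 12 were lower and 5 higher, against 34.3% and 38.4%. Camk4, a calcium/calmodulin-dependent kinase of spermatids, fell from 101 ± 8.66 to 14.7 ± 2.99 CPM (SD, n = 3 each; log2FC -2.76 ± 0.15, edgeR adjusted p = 1.9e-06). Mapk15, an atypical MAP kinase, rose from 34.4 ± 6.70 to 109 ± 3.00 CPM (log2FC 1.68 ± 0.13, edgeR adjusted p = 1.4e-05). The median log2FC of the 20 was -0.51, beside -1.96 for the 6 Tssk genes. In spermatocytes and in CBs none of the 20 was called by edgeR, where 5.1% of genes were called lower and 3.41% higher in spermatocytes and 5.64% and 5.69% in CBs. On adjusted p 5 were lower and 2 higher in spermatocytes, against 14.1% and 14.0% of genes, and 4 lower and 3 higher in CBs, against 18.4% and 18.1%.

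Markers of late spermatids, which pack the nucleus and assemble the tail, moved with the Tssk genes. All 10 (such as the protamine Prm2, the transition protein Tnp1 and the tail proteins Akap4 and Odf1) were called lower in Smg6-cKO in all 3 sample types, spermatocytes, round spermatids and CBs, against 5.1%, 11.6% and 5.64% of genes, with median log2FCs of -2.25, -3.96 and -2.70. Their summed level was 3778 to 7772 CPM in control and 452 to 1469 CPM in Smg6-cKO spermatocytes, and 30789 to 40817 and 2046 to 2097 CPM in round spermatids. In CBs it was 2468 to 5200.3 CPM in CTRL and 515 to 587 CPM in Smg6-cKO. None of the 10 was at 0 in any library. In the 6 spermatocyte libraries the summed Tssk level and the summed late spermatid level had the same order, from CTRL replicate 1 with 703 Tssk CPM and 7772 marker CPM down to Smg6-cKO replicate 3 with 169.7 and 452 CPM. The order was also the same within control round spermatids. In Smg6-cKO round spermatids the summed Tssk level was 457.8 to 564 CPM, and the order was not the same. Replicate 2 had the highest Tssk sum there (564 CPM) and the lowest marker sum (2046 CPM). In CBs the orders differed too, with the highest Tssk sum in control library d (534 CPM) and the highest marker sum in control library b (5200.3 CPM). The part of late spermatids, or of their RNA, in the Tssk values was not tested.

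**Figure D5:**
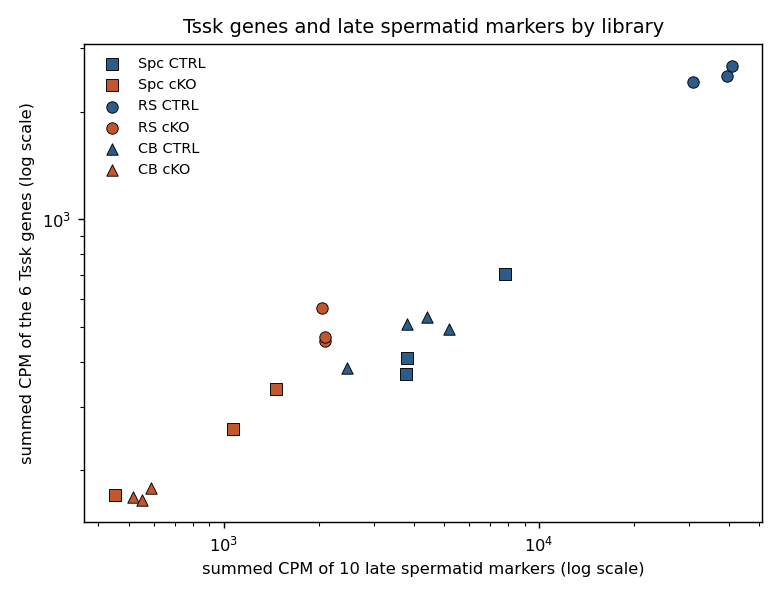
Each point is a library, with the summed CPM of 10 late spermatid markers on the horizontal log axis and the summed CPM of the 6 Tssk genes on the vertical log axis, squares for spermatocytes, circles for round spermatids and triangles for CBs, control in blue and Smg6-cKO in orange. Cells and CBs were scaled separately, and control round spermatids stand alone at the top right, at 2414 to 2686 Tssk CPM.

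The 8 earlier spermatid markers, which include acrosome genes such as Acrv1 and Spaca1, were lower too, with median log2FCs of -0.68 in spermatocytes, where edgeR called none of the 8 and 1 was lower on adjusted p against 5.1% and 14.1% of genes, -1.58 in round spermatids, where 5 of 8 were called against 11.6% of genes, and -1.40 in CBs, where 3 of 8 were called against 5.64%. Per 100 CPM of these markers the 6 Tssk genes had 66.0 to 72.9 CPM in control and 44.3 to 45.6 CPM in Smg6-cKO round spermatids, and 48.1 to 57.6 and 32.0 to 45.0 CPM in spermatocytes. In CBs the ratio was 69.6 to 100.5 in control and 68.6 to 89.7 in Smg6-cKO, which overlapped. Markers of other cells also moved. The summed level of 8 macrophage markers was 30.05 to 43.7 CPM in control and 183 to 295 CPM in Smg6-cKO round spermatids, with 7 of 8 called higher against 14.8% of genes, and that of 6 Leydig cell markers was 8.63 to 9.48 and 31.8 to 329 CPM, with all 5 that were tested called higher. The sum of 8 Sertoli cell markers was 49.0 to 60.4 and 79.2 to 226 CPM, with 2 of 7 tested called higher, against 14.8% of genes. In spermatocytes the Leydig cell markers summed to 116 to 399 CPM in control and 591 to 1190 CPM in Smg6-cKO, the Sertoli cell markers to 268 to 719 and 159 to 228 CPM, and the macrophage markers to 31.2 to 41.6 and 42.5 to 60.8 CPM. There 2 of 6 Leydig cell and 6 of 8 macrophage markers were called higher, against 3.41% of genes, and 7 of 8 Sertoli cell markers lower, against 5.1%. In CBs the Leydig cell markers summed to 15.4 to 59.5 CPM in control and 43.1 to 431 CPM in Smg6-cKO, the Sertoli cell markers to 19.4 to 29.0 and 21.2 to 75.0 CPM, and the macrophage markers to 12.6 to 20.6 and 15.3 to 82.0 CPM, and in each list the groups overlapped. Called higher there were 5 of 5 Leydig cell, 3 of 5 macrophage and 0 of 4 Sertoli cell markers tested by edgeR, against 5.69% of genes. On adjusted p alone 1 Sertoli cell marker was higher, against 18.1% of genes. The summed level of 10 spermatocyte markers was 777 to 804 CPM in control and 1035 to 1170.4 CPM in Smg6-cKO round spermatids, and 2072 to 2349 and 2427 to 2825 CPM in spermatocytes, while in CBs it overlapped, at 1019 to 1375 and 1099 to 1280.4 CPM. None of the 10 was called by edgeR in any of these comparisons. On adjusted p 6 were higher and 2 lower in round spermatids, against 38.4% and 34.3% of genes. In spermatocytes 1 was higher and 1 lower, against 14.0% and 14.1%, and in CBs 1 was lower, against 18.4%. The 4 erythroid markers summed to 16.5 to 19.2 CPM in control and 47.5 to 183 CPM in Smg6-cKO round spermatids, with 3 of 4 called higher, against 14.8% of genes. In spermatocytes they summed to 10.5 to 20.4 and 1.43 to 2.79 CPM, with 1 of 3 tested called lower, against 5.1%. The 6 spermatogonial markers summed to 37.4 to 47.3 and 71.03 to 116 CPM in round spermatids, with 2 of 6 called higher, against 14.8% of genes. In spermatocytes they summed to 49.6 to 61.7 and 64.5 to 111 CPM. None was called there by edgeR, and 1 was higher on adjusted p, against 14.0% of genes. In CBs the sums were 18.5 to 28.8 and 36.5 to 122 CPM, with 2 of 5 tested called higher, against 5.69%. In CBs the erythroid markers overlapped between the groups, at 3.25 to 5.95 and 2.91 to 12.9 CPM. The part of all these lists in the Tssk differences was not tested.

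Over the 12 cell libraries the members followed each other, with Pearson correlations of log2 CPM between 0.88 (Tssk3 with Tssk6) and 0.99 (Tssk1 with Tssk4). These libraries fall into 4 groups that differ in stage and genotype, and the values describe that pattern only. Among 13012 genes whose normalized counts averaged 100 or more, the 5 whose pattern was most like the mean of the 6 were 4930442L01Rik, Sh3d21, Cabyr, Allc and Creb3l4, with correlations of 0.9985 to 0.9998. Cabyr encodes a calcium-binding protein of the sperm tail, and Creb3l4 a transcription factor of spermatids. Such likeness was common, as 1642 of the 13012 genes had a correlation above 0.95. In round spermatids the log2FCs of these 5 lay between -2.26 and -1.89. The 5 were picked by likeness over these same libraries, so this is no separate result.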

How the data were processed

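Members and lists were chosen with earlier results of these data known. Gene counts, raw and per library, were made by the authors with cutadapt 2.8, STAR and TEtranscripts (reverse stranded, GRCm38, UCSC gene symbols, release not given in the sources used here). Expected counts per transcript were deposited by the authors from featureCounts 2.0.1, with read pairs split over overlapping transcripts, and were rounded to whole numbers here. Cell libraries were poly(A)-selected RNA, and CB libraries total RNA. The STAR version differs between labels (2.7.1a) and methods.

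Genes with at least 10 counts (transcripts: 20) in at least 3 libraries were tested by edgeR 4.0.16 (R 4.3.3; TMM, quasi-likelihood F test, Benjamini-Hochberg over all features), within each cell type for genotype, within genotype for stage, and over the 12 cell libraries for the interaction. Exact permutation tests used scipy 1.17.1. Correlations used log2(CPM + 0.5). The text names all 6 members, fixed lists by counts with 5 partners by value, the 2 most changed called kinases in each direction (only 1 existed in each), and the 5 most similar genes. Alternatives were library size scaling, DESeq2 1.42.0, no count filter, transcript sums, a replicate block and leaving out each library. Scripts were tested on simulated data. Small RNA libraries and piRNA precursor tables were not used.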

Additional observations from a re-analysis of the deposited data

Results flagged for a closer look

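The genotype effect differed between round spermatids and spermatocytes by the interaction term for 5 members, against 24.1% of 18171 genes in this direction. The log2 difference of effects was -1.18 for Tssk1, -1.46 for Tssk2, -1.58 for Tssk3, -0.96 for Tssk4 and -1.96 for Tssk6, with Smg6-cKO relatively lower in round spermatids in each. None of the 5 passed with library size scaling, while DESeq2 called 5 members with its own scaling. No value in the group of 4 control CB libraries stood apart from the others by Dixon's criterion in the 6 genes tested, a criterion that chance alone meets in about 1 group of 20.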

How the results depend on the processing

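With library size in place of TMM the members called lower in round spermatids fell from 6 to 2, those called higher in CTRL round spermatids against spermatocytes from 6 to 3, and those with an interaction from 5 to 0, while the transcripts called lower went from 5 to 2 in round spermatids and from 3 to 5 in CBs. Over all genes that scaling changed the calls from 2597 higher and 2021 lower to 4991 and 1080 in round spermatids, from 2895 and 2901 to 1130 and 4363 between the stages in CTRL, from 579 and 671 to 740 and 482 in Smg6-cKO, from 800 and 792 to 639 and 1012 in CBs, and from 3459 and 4375 to 8087 and 545 for the interaction. Over all transcripts it changed 6035 and 5871 to 12327 and 3380 in round spermatids, and 680 and 1454 to 316 and 2935 in CBs. With no count filter 5 CB transcripts of the members were called, and the calls over all transcripts went from 1066 and 2045 to 1887 and 2992 in spermatocytes, to 10369 and 7827 in round spermatids, and to 3269 and 3254 in CBs; the cause was not tested.

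With 1 library left out, 0 to 2 members were called lower in spermatocytes, 5 to 6 in round spermatids and 3 to 4 in CBs. All 6 were called higher between the stages in CTRL, 0 to 1 in Smg6-cKO, and 4 to 5 had an interaction. Of 7 transcripts, 0 to 2 were called in spermatocytes, 4 to 7 in round spermatids and 2 to 3 in CBs. The Tssk3 transcript ENSMUST00000000421 in spermatocytes had log2FCs of -0.77 to 0.014, reversing only without CTRL replicate 1. Leaving out 1 library also moved transcripts of Tssk2 (Smg6-cKO 2, CTRL 2) and Tssk6 (Smg6-cKO 1, CTRL 3) across the limits in spermatocytes, those of Tssk1 (Smg6-cKO 1), Tssk5 (Smg6-cKO 3) and Tssk4 (CTRL 1, CTRL 3) in round spermatids, and that of Tssk5 (Smg6-cKO b) in CBs. Over all genes the spermatocyte calls of 591 higher and 884 lower became 321 and 329 without Smg6-cKO replicate 1, and 330 and 490 without CTRL replicate 3.

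Replicates with the same number had correlated deviations of -0.19 to 0.34 in spermatocytes, -0.17 to 0.10 in round spermatids, -0.27 to -0.10 between the stages in CTRL and -0.06, 0.60 and 0.33 in Smg6-cKO. No comparison had all 3 pairs above 0.1, nor every library closest to its own number, so the numbers were not taken as pairs. A replicate block left the calls at 1 of 6 in spermatocytes, 6 in round spermatids, 6 and 0 between the stages in CTRL and Smg6-cKO, where in Smg6-cKO it raised the members with edgeR adjusted p of at most 0.05 from 4 to 6, and 5 for the interaction, where Tssk5 entered (edgeR adjusted p = 0.029) and Tssk6 left (0.051). No paired analysis was possible in CBs because the numbers in the column names could not be matched to those of the sample titles. The CB counts of 24 to 37 for the lowest members limit their precision. Of the members' single log2FCs, the others kept direction under every alternative run.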
